A study of Mus musculus with 30 samples.

Results

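lincRNA-p21 is a long noncoding RNA transcribed beside Cdkn1a, the gene of the cell cycle inhibitor p21, and p53 switches it on after DNA damage. hnRNP-K is a poly(C)-binding protein with KH domains that works in transcription, splicing, RNA stability and translation, and it is known as a protein partner of lincRNA-p21. Both were knocked down in p53-restored fibroblasts, and the question here was what separates the transcriptome after one knockdown from that after the other.

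The comparison was made over 6 of the 30 arrays of the series: 3 with siRNA against lincRNA-p21 (siLincp21) and 3 with siRNA against Hnrnpk (siHnrnpk). They were chosen by their titles, as replicates 1 to 3 of both knockdowns in the experiment labelled hnRNPKKD profiling. The 3 arrays with a non-targeting siRNA pool from that experiment (control) were set beside them and kept out of the direct fit. In a separate experiment, labelled lincP21KD profiling, 3 further siLincp21 arrays were set against 2 arrays with scrambled siRNA. All of these cells were p53 LSL/LSL mouse embryonic fibroblasts (strain C57BL/6 x 129SvJ, E13.5 embryos), in which a removable stop cassette keeps the p53 gene silent. All received adenovirus carrying Cre (AdenoCRE) for 24 h, which restores p53, then siRNA for 24 h, then 100 nM doxorubicin, a DNA-damaging drug, for 13 h. Control cells therefore also had restored p53 and doxorubicin, and no array of this experiment shows the knockdowns without them. Whether the replicates were separate cultures or embryos is not stated in the labels, so the p-values measure only the spread between these arrays. The RNA is bulk RNA, so fewer cells of a type and less RNA per cell cannot be told apart.

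Each value below is a log2 signal from RMA, a method that corrects, normalizes and summarises Affymetrix probes. Differences are siLincp21 minus siHnrnpk on that log2 scale, so 1 unit is a 2-fold change, and errors of differences are standard errors from limma. A gene was called when its p, adjusted by Benjamini-Hochberg over all 12674 tested genes, was below 0.05.

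The arrays of each group lay closer to each other than to the other group. The median absolute difference over tested genes was 0.097 to 0.169 between siLincp21 arrays, 0.086 to 0.101 between siHnrnpk arrays and 0.206 to 0.261 between an array of one group and an array of the other. Over the 15 fibroblast markers, all above the signal limit, the summed linear signal was 98345 to 100311 with siLincp21, 88796 to 93444 with siHnrnpk and 91381 to 95895 in controls. Of the markers of other cell types, 6 of 13 for macrophages, 2 of 9 for endothelium and 6 of 10 for epithelium were above the limit. So were 7 of 15 for skeletal muscle, 4 of 7 for adipocytes and 7 of 10 for cartilage and bone. The neural markers, 10 of 12 of them above it, are described further below. Among the rest, Lpl (1.29) and Csf1r (0.28) were called higher in the direct comparison. Sox9 of cartilage (-0.89), Krt7 (-0.83), Tnnc1 (-0.69), Kdr (-0.67), Pparg (-0.41) and Cebpa (-0.34) were called lower. The summed signal of the cartilage and bone markers was 340 to 351 with siLincp21, 392 to 420 with siHnrnpk and 380 to 451 in controls. Below the limit were, among others, Adgre1, Itgam and Ptprc of macrophages, Pecam1 and Cdh5 of endothelium and Cdh1 and Krt14 of epithelium. Myod1 and Myf5 of skeletal muscle and Adipoq of adipocytes were also below it. Other members of these lists were above it, among them Cd14 and Cd68 of macrophages, Epcam of epithelium and Fabp4 of adipocytes. The difference between 3' and 5' Actb probes, a sign of RNA degradation, was 0.44, 0.4 and 0.76 on the siLincp21 arrays, 0.36, 0.34 and 0.3 on the siHnrnpk arrays and 0.53, 0.32 and 0.36 on the control arrays. The highest of these belonged to siLincp21 replicate 3, and without that array 4873 genes were called in the direct comparison.

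Hnrnpk itself was depleted only where it was targeted. Its signal was 12.37, 11.91 and 12.31 on the siLincp21 arrays, 8.38, 8.34 and 9.94 on the siHnrnpk arrays and 12.68, 12.03 and 12.47 on the control arrays. The difference was 3.31 ± 0.37 (n = 3 and 3, limma adjusted p 0.000135), and the siHnrnpk arrays did not overlap with either other group. The other 3 probe sets of Hnrnpk gave 3.55, 3.43 and 0.46. siHnrnpk replicate 3 kept more Hnrnpk RNA than its partners on all 4 probe sets. Over the 475 genes called with a difference of 1 or more, that array was also the siHnrnpk array nearest to the siLincp21 mean for 319 genes, 67.2%, and siLincp21 replicate 2 was the siLincp21 array nearest to the siHnrnpk mean for 352 genes, 74.1% (a count added after the values were seen). Leaving out siHnrnpk replicate 3 left 4184 called genes, and leaving out siLincp21 replicate 2 left 4899. The count of genes called and at least 2-fold apart instead rose from 475, to 533 and 561 in that order. lincRNA-p21 and p53 transcripts were not analysed here, so the depth of the lincRNA-p21 knockdown is not known from these values.

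The direct comparison called 5017 of 12674 genes, 39.6%. Of these, 2689 (21.2%) were higher and 2328 (18.4%) lower with siLincp21. A difference of at least 2-fold was found for 475 genes (3.75%), 313 higher (2.47%) and 162 lower (1.28%). The median difference of 0.006 over 12674 genes is held near 0 by the normalization of the arrays. The 3 values of one group lay entirely above or below the 3 of the other for 6625 genes (52.3%). Against the control arrays the fits called 3678 genes for siLincp21 (29.0%) and 3408 for siHnrnpk (26.9%). By direction, these were 17.2% of tested genes higher and 11.8% lower with siLincp21, and 14.1% higher and 12.8% lower with siHnrnpk. Higher genes were 59.2% of the siLincp21 calls, and 48.1% once arrays were centred on their medians. Those fits use the same 3 control arrays, so their values for a gene are set side by side below and not compared.

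**Figure D1:**
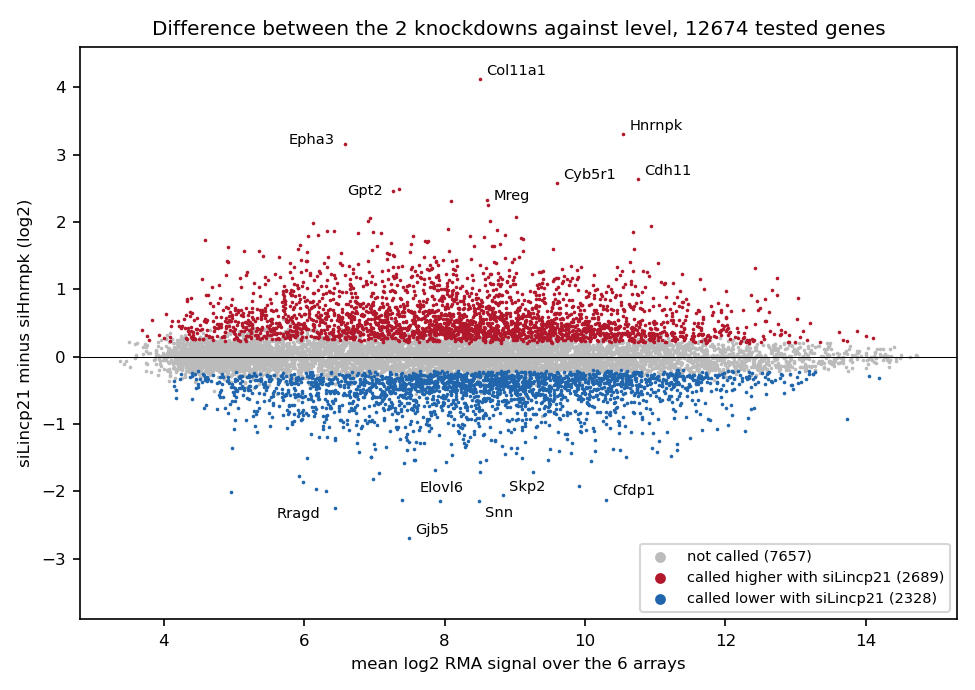
Difference between siLincp21 and siHnrnpk (log2, y axis) against the mean log2 signal of the 6 arrays (x axis) for 12674 tested genes, with 2689 genes called higher in red and 2328 called lower in blue. Col11a1 lies highest at 4.12 and Gjb5 lowest at -2.69.

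The gene that stood furthest apart was Col11a1, a fibrillar collagen chain. It had 10.52, 10.49 and 10.68 with siLincp21, 6.21, 6.39 and 6.71 with siHnrnpk and 8.32, 8.68 and 8.40 in controls. The 3 groups did not overlap, with controls in the middle. The direct difference was 4.12 ± 0.12 (adjusted p 8.59e-07), and the differences from control were 2.10 with siLincp21 and -2.03 with siHnrnpk. The other probe set gave 4.94. Epha3, an ephrin receptor tyrosine kinase, had 8.24, 7.90 and 8.34 with siLincp21, 5.23, 4.33 and 5.42 with siHnrnpk and 6.07, 6.38 and 6.35 in controls, again with controls between the knockdowns. Its difference was 3.17 ± 0.25 (adjusted p 2.63e-05), and its other probe sets gave 0.77 to 2.72. Cdh11, the mesenchymal cadherin 11, had 12.21, 11.94 and 12.07 with siLincp21, 9.29, 9.36 and 9.67 with siHnrnpk and 10.58, 10.49 and 10.46 in controls. The difference was 2.64 ± 0.12 (adjusted p 4.15e-06). Gpt2, the mitochondrial alanine aminotransferase, followed the same order, with 8.53, 8.21 and 8.76 against 5.92, 5.97 and 6.22, and 7.50, 7.34 and 7.47 in controls. It differed by 2.46 ± 0.14 on this probe set and by 0.49 to 1.05 on the others.

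Several other genes far apart passed the test against control on one side only. Cyb5r1, a cytochrome b5 reductase family member, was near control with siLincp21 (10.98, 10.86 and 10.85) and low with siHnrnpk (8.03, 8.26 and 8.65, controls 10.74, 10.74 and 10.63), a difference of 2.58 ± 0.14 (adjusted p 9.05e-06). Svip, an inhibitor of ER-associated degradation that binds VCP, and Mindy2, a deubiquitinase, showed the same one-sided order. Svip was 2.50 ± 0.20 higher with siLincp21 (0.48 on its other probe set) and lay -2.83 from control with siHnrnpk. Mindy2 was 2.32 ± 0.15 higher, and siHnrnpk lay -2.34 from control. Mreg, melanoregulin, moved on the other side: 9.89, 9.42 and 9.92 with siLincp21, 7.55, 7.53 and 7.38 with siHnrnpk and 7.37, 6.83 and 7.30 in controls. Its direct difference was 2.26 ± 0.13 (adjusted p 9.79e-06), while siHnrnpk lay 0.32 above control without passing the test. Aspn, the matrix proteoglycan asporin, differed by 2.31 ± 0.14, also with the siLincp21 side alone apart from control (1.96). The enzyme of proline synthesis Aldh18a1 differed by 2.07 ± 0.15 (0.69 to 1.79 on other probe sets) and was called on both sides of control, at 0.68 with siLincp21 and -1.39 with siHnrnpk.

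Gjb5, which encodes a gap junction connexin, was lowest of all in siLincp21 relative to siHnrnpk. It had 6.05, 6.59 and 5.79 with siLincp21, 8.65, 8.97 and 8.89 with siHnrnpk and 7.90, 7.77 and 8.30 in controls, and the groups did not overlap. The difference was -2.69 ± 0.18 (adjusted p 1.39e-05). Rragd, a Rag GTPase that brings mTORC1 to the lysosome, had 5.17, 5.35 and 5.41 against 7.64, 7.58 and 7.46, with 7.13, 7.06 and 6.97 in controls. It differed by -2.25 ± 0.09 (adjusted p 4.15e-06). Snn, stannin, had 7.37, 7.44 and 7.43 against 9.62, 9.55 and 9.50, with 8.56, 8.74 and 8.77 in controls, a difference of -2.14 ± 0.07 (adjusted p 1.53e-06). In these 3 genes the controls lay between the knockdowns, and Gjb5 and Rragd were also picked by the rule for that order. Skp2, the F-box protein that targets the cell cycle inhibitor p27, had 7.71, 7.85 and 7.85 with siLincp21, 10.00, 9.86 and 9.73 with siHnrnpk and 9.50, 9.19 and 9.38 in controls. Its difference was -2.06 ± 0.09 (adjusted p 4.15e-06), but its other probe sets ranged from -2.03 to 0.05. Cfdp1, a chromatin-associated craniofacial development protein, had 9.19, 9.53 and 8.98 with siLincp21 and the same level in both other groups, 11.35, 11.37 and 11.36 with siHnrnpk and 11.36, 11.37 and 11.34 in controls. The reverse held for Tsacc, a TSSK co-chaperone, with 5.31, 5.49 and 5.15 with siLincp21, 7.42, 7.32 and 7.18 with siHnrnpk and 4.93, 5.20 and 5.45 in controls. Its direct difference was -1.99 ± 0.10, and siLincp21 overlapped with control. The remaining genes among the 12 lowest were Elovl6, Gda, Serpinb1b, Nme5, Bfar and Sprr1a, with differences of -2.14 to -1.86.

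**Figure D2:**
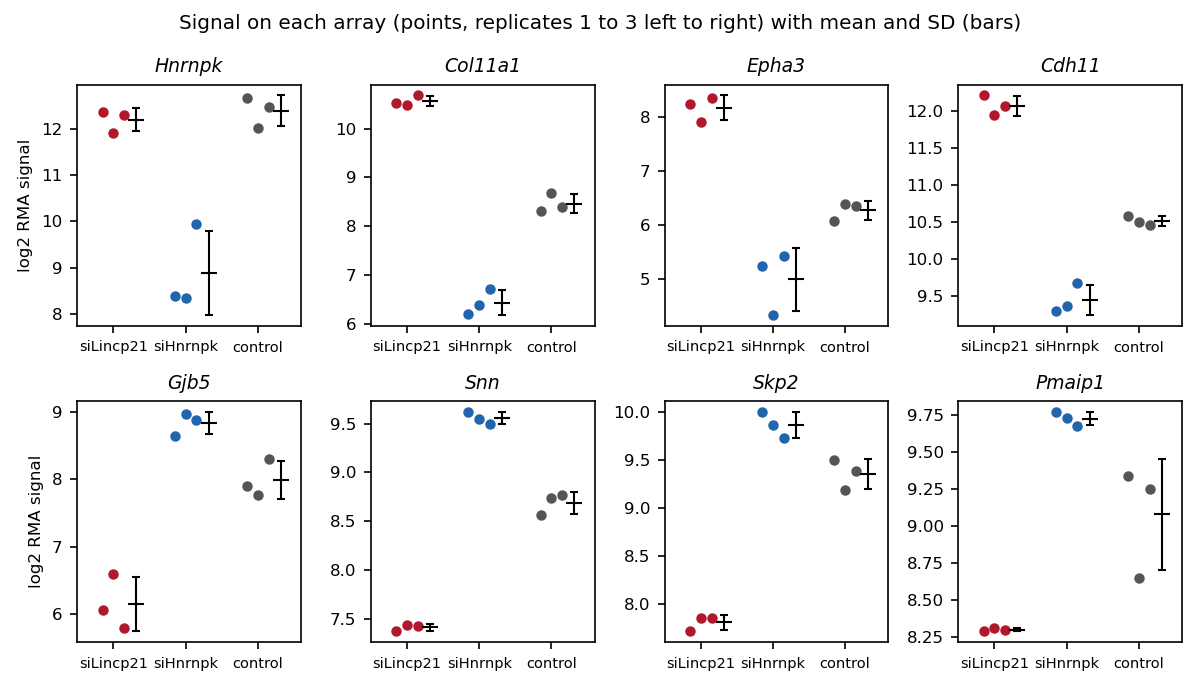
Log2 RMA signal of 8 genes on each array (y axis), in siLincp21 (red), siHnrnpk (blue) and control cells (grey), 3 arrays each, with mean and SD as bars. siHnrnpk replicate 3 stands above its partners for Hnrnpk at 9.94, and the control points lie between the knockdowns for Col11a1, Epha3, Cdh11, Gjb5 and Snn.

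The separate lincP21KD experiment shares no array with the direct comparison and gave the siLincp21 side again, against scrambled siRNA. It called 1503 genes (11.9%), 947 higher (7.47%) and 556 lower (4.39%). Higher genes were 63.0% of these calls, and 45.7% once arrays were centred on their medians. Of the 5017 genes of the direct comparison 928 were called there, which is 18.5% of the direct list and 61.7% of the other, and 781 of the 928 (84.2%) had the same sign. Of the 475 genes at least 2-fold apart, 175 (36.8%) were called there, 161 of them with the same sign. Among the 12 highest genes 9 were called higher there and 0 lower, and among the 12 lowest 7 were called lower and 0 higher. Col11a1 had 10.02, 9.90 and 10.02 with siLincp21 against 8.60 and 8.57 with scrambled siRNA, a difference of 1.39 ± 0.09 (limma adjusted p 0.000113). Snn had 6.47, 6.83 and 6.84 against 8.15 and 8.14, a difference of -1.44 ± 0.13 (adjusted p 0.000421). Hnrnpk did not pass the test there, at -0.04. Cyb5r1, whose siLincp21 arrays lay 0.20 above control without passing the test, was called at 0.41 in the other experiment. These counts rest on 2 scrambled arrays, and without scrambled replicate 1 the experiment called 286 genes.

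Genes of the extracellular matrix, the scaffold of collagens and glycoproteins that fibroblasts secrete, were higher with siLincp21. Of 47 tested members 30 were called higher and 1 lower, 63.8% and 2.13%, beside 21.2% and 18.4% over all tested genes, a background that applies to each list below. Their median difference was 0.37, with a median of 0.41 for siLincp21 minus control and 0.03 for siHnrnpk minus control. Against control 26 members were called higher with siLincp21 and 13 with siHnrnpk. Among fibrillar collagens, Col3a1 had 13.30, 13.32 and 13.34 with siLincp21, 12.09, 12.05 and 12.32 with siHnrnpk and 11.99, 12.50 and 12.34 in controls. It differed by 1.17 ± 0.09 (adjusted p 2.32e-05), and siHnrnpk overlapped with control. Tgfbi, a matrix protein named for its induction by TGF-β, had 10.60, 10.54 and 10.76 with siLincp21, 9.62, 9.59 and 9.52 with siHnrnpk and 9.20, 9.29 and 9.21 in controls. Its difference of 1.06 ± 0.08 (adjusted p 2.68e-05) held on all its probe sets, 0.94 to 1.13 on the others. The type I collagen chains, picked for their abundance after the values were seen, were closer together, Col1a1 by 0.55 ± 0.08 (adjusted p 0.000789) and Col1a2 by 0.27 ± 0.07 (adjusted p 0.0135). Thbs1, thrombospondin 1, differed by 0.86 ± 0.14, and lay at -0.51 from control with siLincp21 (not called) and at -1.37 with siHnrnpk. The 1 member called lower was the collagen chain Col5a3, at -0.33 ± 0.07, which lay above control with both. Over 15 alternative settings the count of matrix genes called higher ranged from 24 to 32. In lincP21KD, 15 members were called higher and 1 lower against scrambled siRNA. Among the 15 fibroblast markers, 6 of them also in the matrix list (Col1a1, Col1a2, Col3a1, Fn1, Dcn and Lum), 9 were called higher and 2 lower, and their summed signal moved the same way (given above). Its part in the matrix result was not tested.

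hnRNP-K is known from human cells to bind the CT element, a run of pyrimidines first studied at the MYC promoter. The 150 bases before the start of Tgfbi, Col1a2 and Tgfb1 are shown because these called genes carry its core letters, CCCTCCC, in capitals here and read on either strand (RefSeq, GRCm38.p6).
Tgfbi: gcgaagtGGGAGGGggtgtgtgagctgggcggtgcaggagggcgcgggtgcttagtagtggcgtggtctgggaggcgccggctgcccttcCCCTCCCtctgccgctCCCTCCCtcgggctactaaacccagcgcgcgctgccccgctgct
Col1a2: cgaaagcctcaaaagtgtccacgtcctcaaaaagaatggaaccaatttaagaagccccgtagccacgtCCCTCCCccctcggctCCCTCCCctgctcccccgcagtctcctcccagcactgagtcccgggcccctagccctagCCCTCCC
Tgfb1: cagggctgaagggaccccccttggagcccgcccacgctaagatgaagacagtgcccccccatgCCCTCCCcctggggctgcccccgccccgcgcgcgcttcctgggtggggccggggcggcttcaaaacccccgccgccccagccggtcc
These stretches are chr13:56609436-56609585, chr6:4505468-4505617 and chr7:25686852-25687001, all on the plus strand. Counting back from -1 as the last base before the start, the Tgfbi matches begin at -143, -60 and -44, those of Col1a2 at -82, -66 and -7, and that of Tgfb1 at -87. Windows of 250 bases before to 50 after the start were at hand for 10232 of the 12674 tested genes. The core was in 34.7% of the windows of genes called higher, 24.3% of those of genes called lower and 29.0% of those of all tested genes, with median GC contents of 62.3%, 60.3% and 60.7%. It was in 62.5% of the windows of matrix genes called higher and in 9 of the 15 windows of the other matrix genes, so the letters did not set the called matrix genes apart. Tgfb1 is in the TGF-β and contractile list described below. There the core was in 31.2% of the windows of members called higher and 46.2% of those of the other members. A match is a description of letters and not a binding site.

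Proteases that cut the matrix and their inhibitors were also mostly higher. Of 28 tested members 16 were called higher with siLincp21 and 4 lower, and the median difference was 0.39. The lower count was 2 without siHnrnpk replicate 1, without siHnrnpk replicate 3 or without siLincp21 replicate 1. Plau, the urokinase plasminogen activator, had 10.02, 9.74 and 9.53 with siLincp21, 7.90, 8.04 and 7.94 with siHnrnpk and 8.02, 8.50 and 8.50 in controls. It differed by 1.80 ± 0.12 (adjusted p 1.28e-05). Serpinb2, the plasminogen activator inhibitor 2, went the opposite way: 8.34, 8.36 and 8.35 against 10.05, 9.84 and 9.67, with 9.59, 8.93 and 9.35 in controls. Its difference was -1.50 ± 0.10 (adjusted p 1.34e-05), and the groups of the 2 knockdowns did not overlap for either gene. The secreted metalloproteases Adamts12 and Adamts1 were higher by 2.06 ± 0.12 and 1.48 ± 0.11 (adjusted p 9.65e-06 and 2.34e-05). The collagenase Mmp13 and the stromelysin Mmp3 reached their calls from the siHnrnpk side. Mmp3 had 11.82, 11.80 and 11.78 with siLincp21, 10.94, 10.58 and 10.61 with siHnrnpk and an average of 11.96 ± 0.09 in controls (SD, n = 3), a difference of 1.09 ± 0.10 (adjusted p 6.43e-05). Mmp13 differed by 1.16 ± 0.15, and it lay below control with both siRNAs (-0.55 and -1.71). In lincP21KD Mmp13 was instead called higher with siLincp21 than with scrambled siRNA, at 1.33 ± 0.21 (limma adjusted p 0.00459). The membrane protease Mmp14 and the gelatinase Mmp2, named after their values were seen, were higher by 0.69 ± 0.07 and 0.81 ± 0.08. In lincP21KD, 10 of the 28 were called higher and 1 lower.

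**Figure D3:**
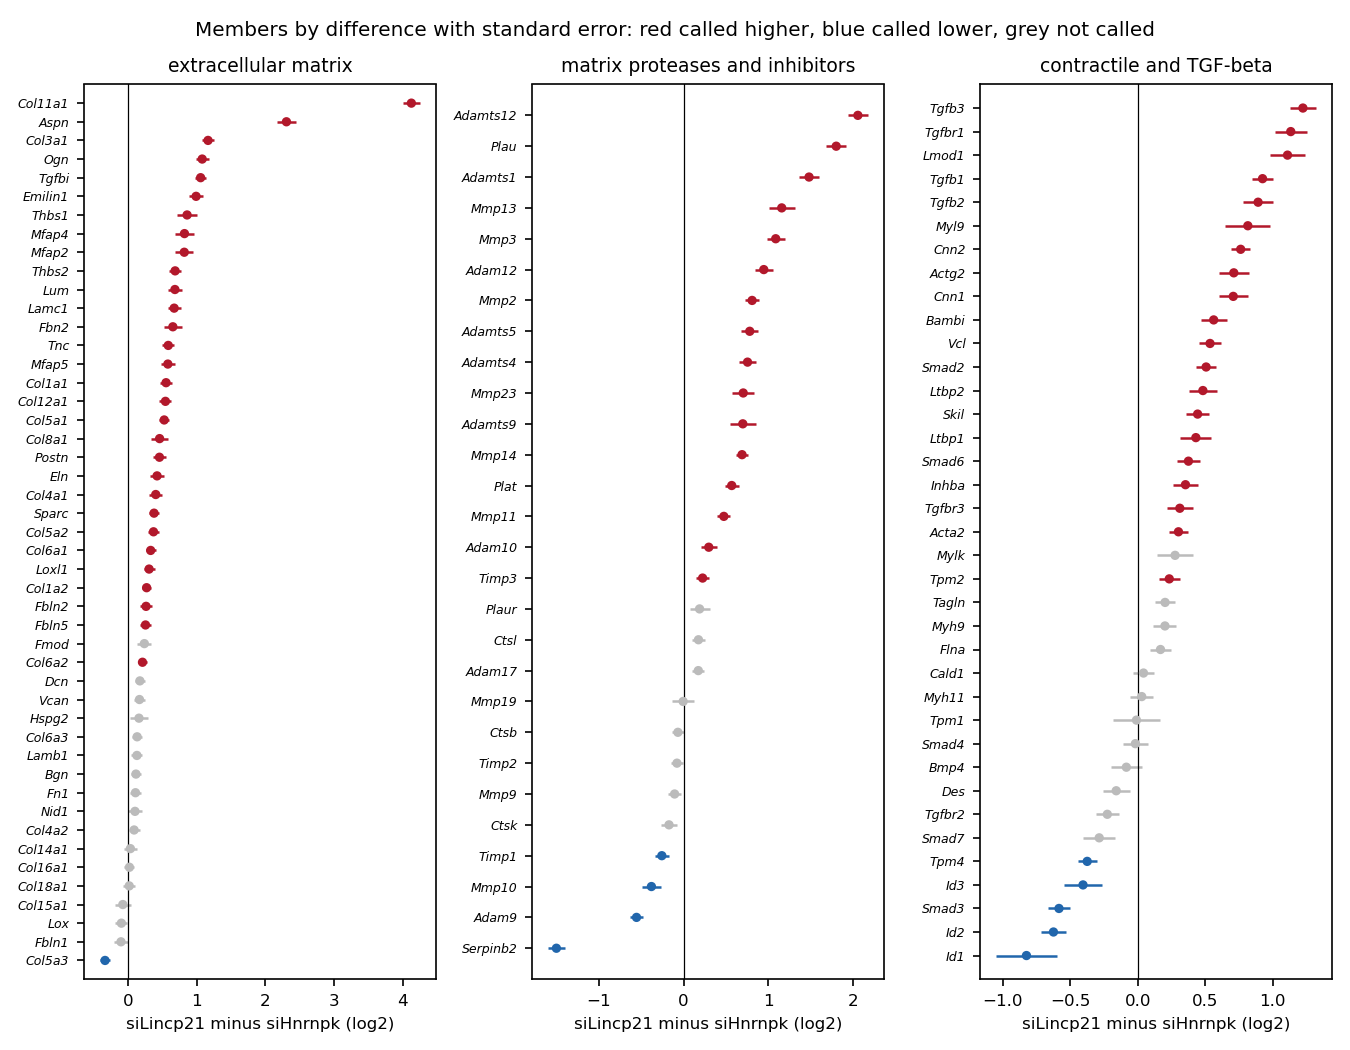
Difference between siLincp21 and siHnrnpk (log2, x axis) with its standard error for each tested gene of the extracellular matrix, protease and contractile lists, red where called higher, blue where called lower and grey where not called. Most points lie right of 0, and the Id genes, Smad3 and Serpinb2 lie left of it.

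TGF-β ligands bind receptors that phosphorylate SMAD proteins, and in fibroblasts this raises matrix and contractile genes, while BMP ligands raise the Id genes through other SMADs. In the list that holds this pathway and contractile proteins, 20 of 37 tested members were called higher and 5 lower, with a median difference of 0.30. All 3 ligands were called higher. Tgfb3 had 9.83, 9.75 and 9.97 with siLincp21, 8.52, 8.58 and 8.79 with siHnrnpk and 8.78, 8.74 and 8.79 in controls, a difference of 1.22 ± 0.10 (adjusted p 2.74e-05). Tgfb1 had 8.50, 8.58 and 8.61 against 7.54, 7.71 and 7.66, with 8.22, 8.43 and 8.38 in controls. The call for Tgfb1, 0.92 ± 0.08 (adjusted p 3.92e-05), thus came from the siHnrnpk side, whereas siHnrnpk and control overlapped for Tgfb3. The other probe set of Tgfb1 gave -0.02. Tgfb2 averaged 9.16 ± 0.22 with siLincp21, 8.26 ± 0.04 with siHnrnpk and 8.0 ± 0.11 in controls (SD, n = 3 each) and differed by 0.89 ± 0.11 (adjusted p 0.000257). Among receptors, Tgfbr1 was higher by 1.13 ± 0.12 (adjusted p 0.000106, its other probe set -0.14) and Tgfbr2 was not called at -0.23.

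Among SMADs, Smad2 was called higher by 0.51 ± 0.07 and Smad3 lower, at -0.58 ± 0.09. Id1, Id2 and Id3, inhibitors of helix-loop-helix factors, were all called lower, at -0.82 ± 0.23, -0.62 ± 0.09 and -0.41 ± 0.14. Contractile genes called higher included the calponins Cnn1 and Cnn2, the leiomodin Lmod1 and the smooth muscle actins Acta2 and Actg2. Cnn2 had 12.45, 12.34 and 12.42 with siLincp21, 11.64, 11.65 and 11.63 with siHnrnpk and 11.62, 11.90 and 11.54 in controls, and differed by 0.76 ± 0.07 (adjusted p 6.21e-05). In the fit with the p53 siRNA and control arrays included, the count of members called higher in this list was 13 and lower 3. Without siHnrnpk replicate 3 the lower count was 3. In lincP21KD 5 of the 37 were called higher and 3 lower against scrambled siRNA, with a median of -0.01. There Tgfb3 was called higher at 0.44 and Tgfbr1 lower at -0.63, and Tgfb1 was not called at -0.13. Tgfbr2, the SMADs, the Id genes and the contractile genes other than Cnn2 were named after their values were seen.

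The cell adhesion and cytoskeleton list holds integrins, the receptors that hold cells to the matrix, beside other adhesion and cytoskeletal genes such as Cdh11. Its members were called higher more often than lower with siLincp21, and 22 of 45 tested members were not called. The others were 19 called higher and 4 lower, 42.2% and 8.89%, with a median difference of 0.13. The lower count was 2 without siHnrnpk replicate 1 or replicate 2. In lincP21KD 3 members were called higher and 2 lower against scrambled siRNA, with a median of 0.01. Itgav, the αv chain, had 13.08, 12.96 and 13.18 with siLincp21, 11.64, 11.73 and 11.91 with siHnrnpk and 12.67, 12.43 and 12.46 in controls, with no overlap among the 3 groups. It differed by 1.31 ± 0.10 (adjusted p 2.01e-05, other probe sets 0.27 to 0.80). Itgb3, a β chain that pairs with αv, differed by 1.08 ± 0.09 (adjusted p 3.24e-05) on one probe set and by 0.12 on the other. Ezr, ezrin, which links actin to the membrane, was lower: 9.19, 9.23 and 8.98 against 10.44, 10.33 and 10.30, with 10.32, 10.04 and 10.18 in controls. Its difference was -1.22 ± 0.09 (adjusted p 2.03e-05), and -0.27 on its other probe set.

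Growth factors and receptors were called in both directions, 15 of 45 higher and 7 lower. Igfbp5, an IGF-binding protein, had 9.47, 9.38 and 9.71 with siLincp21, 7.85, 7.97 and 7.82 with siHnrnpk and 8.64, 8.44 and 8.41 in controls. The difference was 1.64 ± 0.10 (adjusted p 1.04e-05), but the other probe set gave 0.09. Pdgfrb, a PDGF receptor and fibroblast marker, was higher by 0.93 ± 0.11 (adjusted p 0.000155) and lay above control with siLincp21 (1.36). Kitl, the ligand of the KIT receptor, was lower relative to siHnrnpk, with 9.77, 9.82 and 9.96 against 10.79, 10.70 and 10.75. Controls had 9.76, 9.75 and 9.63, so siLincp21 lay 0.14 and siHnrnpk 1.04 above control, and the difference was -0.90 ± 0.08 (adjusted p 4.50e-05).

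**Figure D4:**
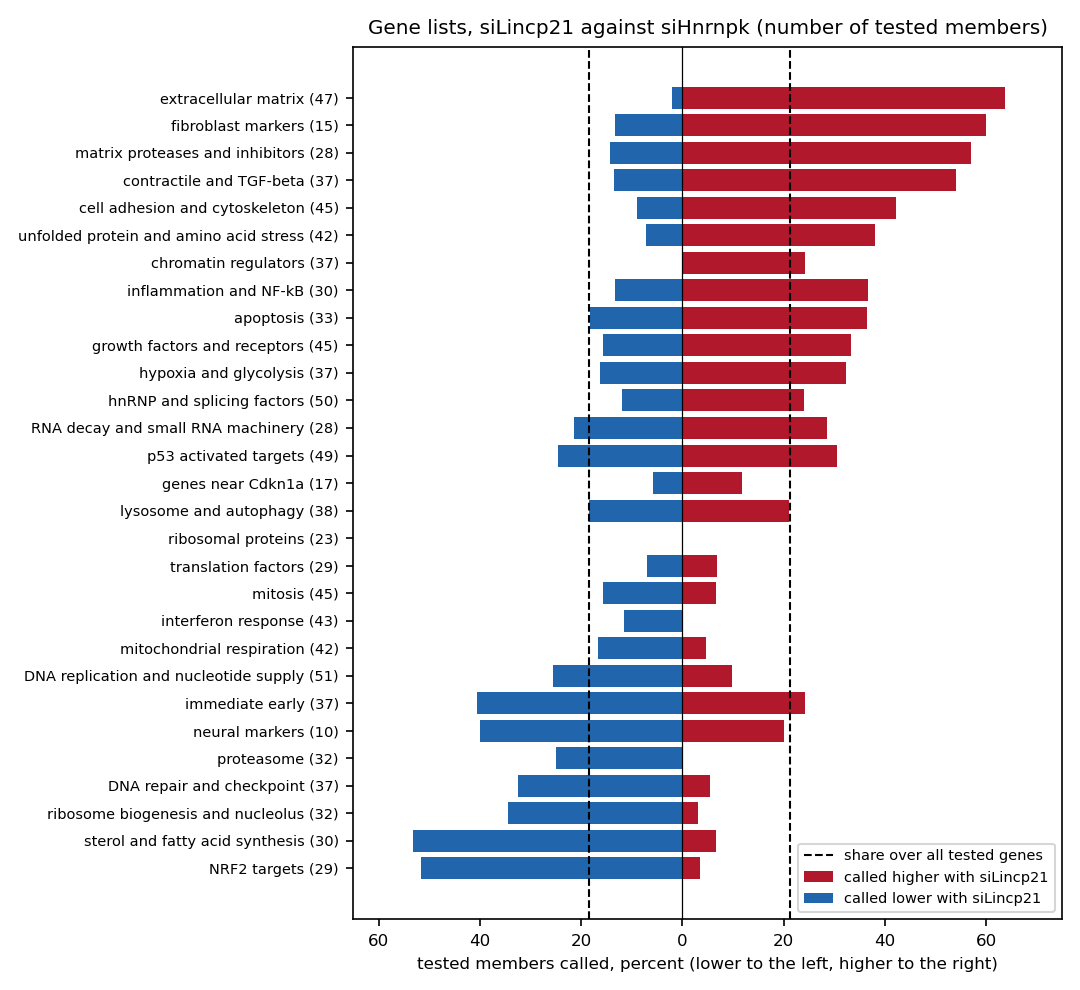
Percent of tested members called higher (red, to the right) or lower (blue, to the left) with siLincp21 relative to siHnrnpk, for each list with at least 10 tested members. Dashed lines mark the shares over all tested genes, 21.2% higher and 18.4% lower. The extracellular matrix list reaches 63.8% higher, and the sterol and NRF2 lists reach 53.3% and 51.7% lower.

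Cholesterol is built from acetyl-CoA by the mevalonate pathway, whose genes SREBP2 drives together, and fatty acids are made and elongated by genes under SREBP1. These genes were lower with siLincp21: of 30 tested members 16 were called lower and 2 higher, 53.3% and 6.67%. The median difference was -0.31, with a median of -0.39 for siLincp21 minus control and 0.05 for siHnrnpk minus control. Against control 14 members were called lower with siLincp21 and 3 with siHnrnpk. Hmgcs1, which makes HMG-CoA, averaged 10.8 ± 0.15 with siLincp21, 11.7 ± 0.13 with siHnrnpk and 11.5 ± 0.27 in controls (SD, n = 3 each), a difference of -0.92 ± 0.10 (adjusted p 0.000143). Idi1, the isopentenyl-diphosphate isomerase, had 9.58, 9.85 and 9.71 against 11.24, 11.07 and 10.94, with 9.83, 10.57 and 9.91 in controls. Its difference, -1.37 ± 0.10 (adjusted p 2.19e-05), lay mostly on the siHnrnpk side (0.98 above control), and siLincp21 overlapped with control. Nsdhl, which removes a carbon from the sterol ring, had 9.26, 9.57 and 9.33 against 10.56, 10.53 and 10.41, with 10.19, 10.43 and 10.21 in controls, a difference of -1.12 ± 0.10 (adjusted p 4.13e-05). For Nsdhl the siLincp21 arrays were the ones apart from control. Elovl6, which elongates palmitate, had 6.72, 7.07 and 6.81 against 9.06, 8.99 and 8.98, with 8.68, 8.93 and 8.44 in controls. It differed by -2.14 ± 0.10 (adjusted p 4.97e-06), and by -2.24 to -0.09 on its other probe sets. Stard4, a sterol carrier, lay below control with both siRNAs (-1.78 and -0.68) and differed by -1.10 ± 0.12. The members called higher, named after their values were seen, were the desaturase Scd1 and Hsd17b7, at 0.29 and 0.27. Srebf2, which encodes SREBP2, was not called at -0.22. Over 15 alternatives the members called lower ranged from 11 to 17. In lincP21KD 4 of the 30 were called lower and 0 higher against scrambled siRNA in limma (9 and 0 at an unadjusted p under 0.05), with a median of -0.19.

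The promoters of Hmgcs1, Idi1 and Nsdhl are shown because all 3 genes were called lower in the direct comparison; CCAAT boxes (CCAAT, read on either strand) bind NF-Y, a cofactor of SREBP, and are in capitals, as is the 1 match to the sterol response element core TCACNCCAC, in Hmgcs1.
Hmgcs1: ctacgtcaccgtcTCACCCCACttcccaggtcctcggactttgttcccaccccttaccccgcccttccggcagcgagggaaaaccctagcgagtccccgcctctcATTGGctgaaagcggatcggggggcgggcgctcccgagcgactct
Idi1: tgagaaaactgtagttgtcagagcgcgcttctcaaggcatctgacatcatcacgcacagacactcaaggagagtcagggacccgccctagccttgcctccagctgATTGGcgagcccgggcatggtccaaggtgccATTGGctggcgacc
Nsdhl: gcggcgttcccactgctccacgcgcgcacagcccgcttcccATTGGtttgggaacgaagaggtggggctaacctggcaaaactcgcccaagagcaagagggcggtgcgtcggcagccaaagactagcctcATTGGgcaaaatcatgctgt
The stretches are chr13:119690201-119690350, chr13:8885456-8885605 and chrX:72918371-72918520 (RefSeq, GRCm38.p6, plus strand), each of 150 bases ending at -1. The sterol element match spans -137 to -129, and the CCAAT boxes begin at -45 in Hmgcs1, at -45 and -14 in Idi1 and at -109 and -20 in Nsdhl. CCAAT was in 64.7% of the windows of the called-lower members (12 of 16 genes had a window), in 69.2% of those of the other members and in 37.5% of those of all tested genes. It was thus no rarer in the members not called lower. TCACNCCAC was in 1 of 17 windows of the called-lower members and in 1.15% of the windows of all tested genes.

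NRF2, encoded by Nfe2l2, drives antioxidant and detoxifying genes through antioxidant response elements. Of 29 tested targets 15 were called lower with siLincp21 and 1 higher, 51.7% and 3.45%, with a median difference of -0.26. Here the medians against control were -0.16 for siLincp21 and 0.17 for siHnrnpk. Gclm, a subunit of the enzyme that starts glutathione synthesis, had 10.60, 10.88 and 10.48 with siLincp21, 12.15, 11.94 and 11.79 with siHnrnpk and 11.27, 11.34 and 11.07 in controls. Its difference was -1.31 ± 0.13 (adjusted p 6.69e-05), with controls between the knockdowns, and -0.22 on its other probe set. Me1, malic enzyme, which makes NADPH, had 9.96, 10.17 and 9.81 against 10.99, 11.05 and 10.94, with 10.44, 10.79 and 10.52 in controls, a difference of -1.02 ± 0.10 (adjusted p 7.17e-05). Slc7a11, the cystine importer, differed by -0.83 ± 0.12 (adjusted p 0.000649) and by 0.04 on its other probe set. Hmox1, heme oxygenase, averaged 11.5 ± 0.44 with siLincp21, 12.6 ± 0.02 with siHnrnpk and 11.8 ± 0.18 in controls (SD, n = 3 each). It differed by -1.02 ± 0.18 (adjusted p 0.00207), and the glutathione transferases Gstm1 and Gsta3, also chosen after their values were seen, by -0.95 ± 0.15 and -0.86 ± 0.18. The member called higher was the drug exporter Abcc1, with 11.32, 11.29 and 11.40 against 9.89, 9.86 and 10.04 and 10.93, 10.89 and 10.90 in controls. It differed by 1.41 ± 0.08 (adjusted p 9.65e-06). Nfe2l2 itself was not called at -0.10. Without siHnrnpk replicate 1 or without siHnrnpk replicate 2, 8 members were called lower, without siLincp21 replicate 1 the count was 9, and with all arrays of the experiment in the fit it was also 9. In lincP21KD the list had a median of 0.16, with 3 members called higher and 1 lower, so the direction there was not that of the direct comparison.

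The core of the antioxidant response element, TGACNNNGC, was found in the 150 bases before the start of Gclm, read on the minus strand at -134 to -126, and of Gsta3 at -121 to -113, both in capitals. Me1 and Srxn1, also called lower, had matches across the start and after it, outside those 150 bases.
Gclm: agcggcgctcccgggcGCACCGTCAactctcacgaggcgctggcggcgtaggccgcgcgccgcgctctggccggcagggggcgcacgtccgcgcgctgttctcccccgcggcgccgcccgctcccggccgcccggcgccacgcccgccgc
Gsta3: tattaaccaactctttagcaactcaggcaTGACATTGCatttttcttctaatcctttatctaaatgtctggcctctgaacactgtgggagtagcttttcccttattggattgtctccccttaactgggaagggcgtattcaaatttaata
They lie at chr3:122245407-122245556 and chr1:21240435-21240584 (RefSeq, GRCm38.p6, plus strand). The core was in 23.5% of the windows of targets called lower, 26.7% of those of the other targets and 14.0% of those of all tested genes.

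**Figure D5:**
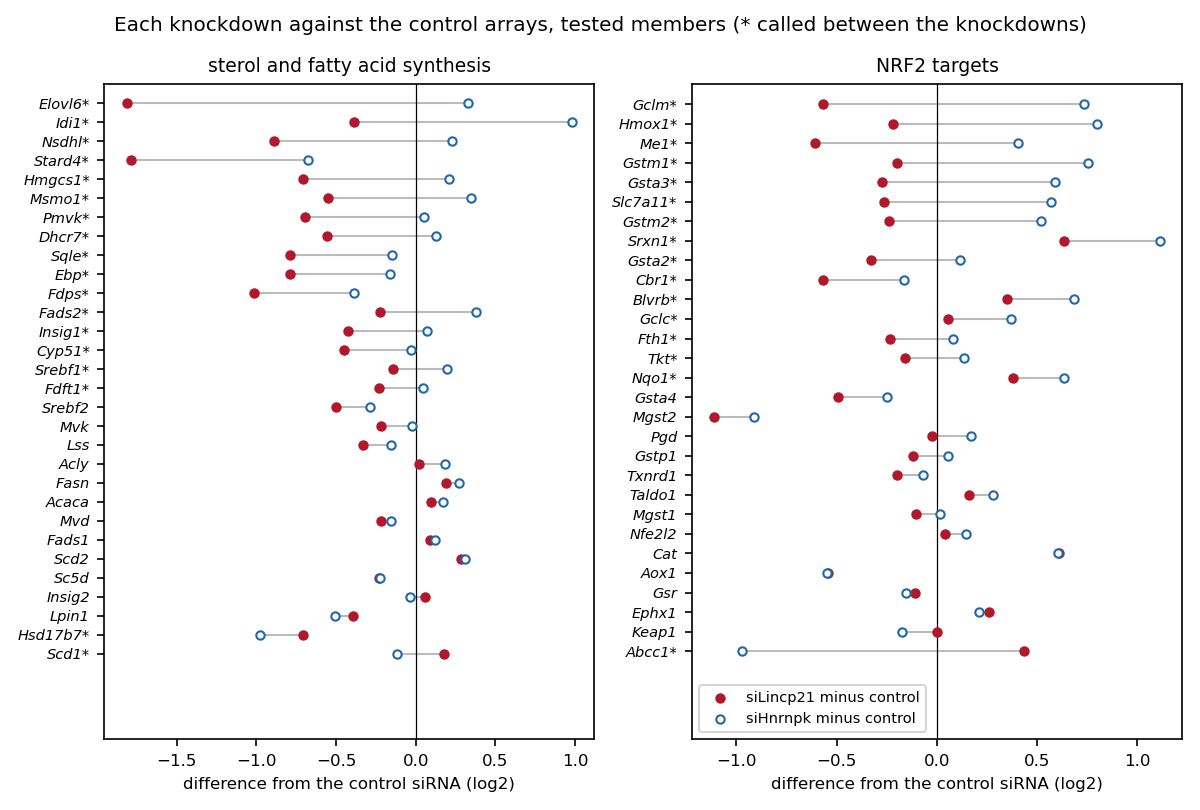
Difference of siLincp21 (filled) and siHnrnpk (open) from the same control arrays (log2, x axis) for each tested sterol and NRF2 gene, ordered by the direct difference, with an asterisk where the 2 knockdowns differed by the direct test. Elovl6 lies at -1.81 with siLincp21 and 0.33 with siHnrnpk, and Abcc1 runs the other way.

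p53 targets, the genes whose transcription p53 raises, were called in both directions. Of 49 tested targets 15 were called higher and 12 lower (30.6% and 24.5%), and the median difference was -0.05. Cdkn1a had 13.73, 13.81 and 13.86 with siLincp21, 13.54, 13.60 and 13.54 with siHnrnpk and 13.53, 13.43 and 13.51 in controls. Its difference, 0.24 ± 0.07 (adjusted p 0.0281), was small, was 0.14 on the other probe set and was not called in 7 of 15 alternatives. Pmaip1, which encodes the BH3-only death protein NOXA, had 8.29, 8.31 and 8.30 with siLincp21, 9.77, 9.73 and 9.68 with siHnrnpk and 9.34, 8.65 and 9.25 in controls. The 3 groups did not overlap, and the difference was -1.43 ± 0.07 (adjusted p 6.60e-06). The cyclin gene Ccnd2 and the ubiquitin ligase gene Fbxw7 were higher, by 0.87 ± 0.09 and 0.85 ± 0.08 (adjusted p 0.000100 and 7.71e-05). Ei24, an ER protein of autophagy, was lower, at -0.73 ± 0.08 (adjusted p 0.000103). Mdm2, the p53 ubiquitin ligase, was called at -0.25 ± 0.07, and Ccng1 was not called at 0.08; both were named after their values were seen. In the fit of all 12 arrays 9 targets were called higher and 7 lower, and without siHnrnpk replicate 1 the higher count was 9.

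Apoptosis genes split in the same manner, 12 of 33 called higher and 6 lower, with 6 called higher with all 12 arrays in the fit and 7 called higher without siHnrnpk replicate 1 or replicate 2. Bmf, another BH3-only gene, had 6.65, 6.58 and 7.10 with siLincp21, 5.0, 5.45 and 4.90 with siHnrnpk and 5.65, 5.87 and 5.63 in controls, a difference of 1.67 ± 0.17 (adjusted p 8.75e-05). It was above control with siLincp21 (1.06), where Pmaip1 was below (-0.78). Casp8, an initiator caspase, was lower at -0.47 ± 0.09 (adjusted p 0.00310). Among 17 tested genes at and near Cdkn1a on its chromosome, 2 were called higher and 1 lower, 11.8% and 5.88% beside 21.2% and 18.4% over all genes. The higher count was 6 with trend and robust variances and 1 with all 12 arrays in the fit. The called genes were Cdkn1a, the kinase gene Stk38 at 0.40 ± 0.07 and the ubiquitin ligase gene Rnf8 at -0.43 ± 0.08. The other probe set of Stk38 above the limit gave -0.06, and its call was lost with the mean of a gene's probe sets.

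Cell division genes were mostly not called. Of 45 mitosis genes 3 were called higher and 7 lower (6.67% and 15.6%), with medians of -0.47 for siLincp21 and -0.43 for siHnrnpk against the same controls. The lower count was 4 without siHnrnpk replicate 2 or without siLincp21 replicate 1 and 2 with all 12 arrays in the fit. The higher count was 6 with array weights. In lincP21KD the median of siLincp21 minus scrambled siRNA was 0.17, with 7 called higher and 1 lower. The direction there was not that of siLincp21 against control here. Spc25, a kinetochore subunit, had 9.94, 9.96 and 9.84 with siLincp21, 10.78, 10.77 and 10.75 with siHnrnpk and 10.86, 10.78 and 10.79 in controls, a difference of -0.86 ± 0.07 (adjusted p 3.74e-05), with 0.18 on its other probe set. The mitotic transcription factor Foxm1 was higher by 0.64 ± 0.07, and by 0.14 to 0.34 on its other probe sets above the limit. Among 51 replication genes 5 were called higher and 13 lower, the lower count being 8 without siHnrnpk replicate 1. Ccne2, cyclin E2, had 8.02, 7.84 and 7.94 with siLincp21, 6.92, 6.87 and 7.05 with siHnrnpk and 8.32, 7.84 and 8.04 in controls, and Pole2, a DNA polymerase ε subunit, had 8.54, 8.28 and 8.72, against 7.26, 7.16 and 7.49, with 8.54, 8.69 and 8.56 in controls. Both were lower with siHnrnpk than in the other groups, and differed by 0.98 ± 0.08 and 1.21 ± 0.13. In lincP21KD Ccne2 was called lower with siLincp21 than with scrambled siRNA, at -0.66, and Pole2 was not called at 0.18. Among 37 DNA repair genes 12 were called lower and 2 higher, with a median difference of -0.14. The lower count was 8 without siHnrnpk replicate 3. In lincP21KD limma called 1 of these genes higher and 0 lower against scrambled siRNA (6 and 5 at an unadjusted p under 0.05), with a median of 0.01. Xpa, a nucleotide excision repair protein, had 7.50, 7.41 and 6.83 with siLincp21, 8.15, 8.24 and 8.05 with siHnrnpk and 7.21, 7.28 and 7.28 in controls, and differed by -0.90 ± 0.16 (adjusted p 0.00191).

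hnRNP-K belongs to the RNA-binding proteins, and its relatives were examined as a list. Of 50 hnRNP and splicing factor genes other than Hnrnpk, 12 were called higher, a share of 24.0% near the 21.2% over all genes, and 6 lower, or 3 with all 12 arrays in the fit. Ptbp3, a splicing regulator of the polypyrimidine tract-binding family, had 9.26, 9.05 and 9.50 with siLincp21, 7.92, 7.95 and 8.24 with siHnrnpk and 9.21, 9.05 and 9.11 in controls. It differed by 1.23 ± 0.13 (adjusted p 9.69e-05), and by 0.18 on its other probe sets. In lincP21KD Ptbp3 was instead called lower with siLincp21 than with scrambled siRNA, at -0.85. Srsf9, an SR splicing factor, had 10.58, 10.55 and 10.48 against 9.84, 9.92 and 9.96, with 10.82, 10.78 and 10.77 in controls, a difference of 0.63 ± 0.07 (adjusted p 0.000206). Mbnl2 and Hnrnpdl were higher by 0.51 ± 0.08 and 0.48 ± 0.08. For these 4 genes the siHnrnpk arrays lay below control, by -1.09 to -0.48. Of the 4 poly(C)-binding relatives Pcbp1, Pcbp2, Pcbp3 and Pcbp4, limma called 0 (1 at an unadjusted p under 0.05), with differences of -0.07, 0.14, -0.16 and 0.20 in that order. With trend and robust variances, 2 of them were called higher. Of the 23 ribosomal protein genes tested limma also called 0, with 0 at an unadjusted p under 0.05, and 2 were called lower with the mean of a gene's probe sets.

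Stress programs differed in part. Among 42 genes of the unfolded protein and amino acid responses 16 were called higher and 3 lower. They included the ATF4 targets Asns, which makes asparagine, and Slc7a5, a transporter of large neutral amino acids. Asns had 11.42, 11.40 and 11.20 with siLincp21, 10.52, 10.66 and 10.60 with siHnrnpk and 10.01, 10.45 and 10.15 in controls, and differed by 0.75 ± 0.09 (adjusted p 0.000191). Slc7a5 had 8.83, 8.73 and 9.04 against 8.10, 8.12 and 8.08, with 7.26, 7.58 and 7.27 in controls, and differed by 0.77 ± 0.09 (adjusted p 0.000217). Both lay above control with siLincp21 (1.14 and 1.5), and with siHnrnpk at 0.39, not called, and 0.73. In lincP21KD 18 members of the list were called higher and 1 lower. Among 37 hypoxia and glycolysis genes 12 were called higher and 6 lower, or 3 lower with all 12 arrays in the fit. Bnip3, a mitophagy receptor, had 10.27, 10.24 and 10.37 with siLincp21, 9.03, 8.99 and 9.26 with siHnrnpk and an average of 10.77 ± 0.26 in controls (SD, n = 3), and differed by 1.2 ± 0.09 (adjusted p 2.42e-05). Adm, the vasodilator peptide adrenomedullin, differed by 1.03 ± 0.09 from the other side, 1.33 above control with siLincp21.

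Immediate early genes, which growth signals switch on within minutes, were called in both directions, 9 of 37 higher and 15 lower, 24.3% and 40.5% beside 21.2% and 18.4% over all genes. With all 12 arrays in the fit 8 were called lower. The phosphatases Dusp4, Dusp5 and Dusp6, which feed back on ERK signalling, were among the lower ones. Dusp4 had 6.28, 6.21 and 6.13 with siLincp21, 7.99, 7.90 and 7.93 with siHnrnpk and 8.14, 8.26 and 8.38 in controls, a difference of -1.73 ± 0.08 (adjusted p 4.15e-06). Dusp6 differed by -0.74 ± 0.07 and Dusp5, named after its value was seen, by -0.65 ± 0.08. Higher were Fosl2, an AP-1 subunit, by 1.32 ± 0.14 (0.49 on its other probe set) and Ccn2, a matricellular growth factor that TGF-β and YAP raise, by 0.98 ± 0.08. Ccn2 had 12.43, 12.43 and 12.62 with siLincp21, 11.54, 11.49 and 11.51 with siHnrnpk and 12.20, 12.17 and 12.02 in controls, so that its groups did not overlap.

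Of 37 chromatin regulators 9 were called higher, a share of 24.3% that lies near the 21.2% over all genes. limma called 0 lower, beside 18.4% over all genes, with 1 lower at an unadjusted p under 0.05 and 2 called lower with array weights. Kdm6b, an H3K27 demethylase, and Ezh2, an H3K27 methyltransferase, were both called higher, at 0.83 ± 0.11 and 0.51 ± 0.08 (adjusted p 0.000434 and 0.00120). Ezh2 had 8.66, 8.59 and 8.74 with siLincp21, 8.05, 8.25 and 8.15 with siHnrnpk and 8.76, 8.99 and 8.93 in controls. Among 32 ribosome biogenesis genes 11 were called lower and 1 higher, but without siHnrnpk replicate 2 the lower count was 4, and without siHnrnpk replicate 3 or siLincp21 replicate 1 it was 6. Among 28 genes of RNA decay and small RNA pathways 8 were called higher and 6 lower, 28.6% and 21.4% beside 21.2% and 18.4% over all genes, and 5 were called higher with the mean of a gene's probe sets. Zfp36l2, an AU-rich element binding decay factor, averaged 9.91 ± 0.11 with siLincp21, 11.05 ± 0.05 with siHnrnpk and 10.50 ± 0.03 in controls (SD, n = 3 each) and differed by -1.14 ± 0.08 (adjusted p 1.92e-05), with -0.33 to -0.10 on its other probe sets. Tarbp2, a Dicer partner, differed by -1.02 ± 0.09 (adjusted p 3.87e-05) and Xpo5, which exports microRNA precursors, by -0.76 ± 0.07. The proteasome list had 8 of 32 called lower and 0 higher in limma (17 and 0 at an unadjusted p under 0.05), with 2 to 19 called lower over the alternatives (2 without siHnrnpk replicate 1, 3 without siHnrnpk replicate 2 or 3 and 5 without siLincp21 replicate 1). The interferon list had 5 of 43 called lower and 0 higher in limma (10 and 4 at an unadjusted p under 0.05). With the replicate block 4 were called higher, and 13 were called lower without siHnrnpk replicate 1, 1 without siHnrnpk replicate 2 or siLincp21 replicate 1, 2 without siHnrnpk replicate 3 and 3 without siLincp21 replicate 2. Those 2 counts therefore depended on the setting and on single arrays.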

How the data were processed

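Total RNA was hybridised to Affymetrix mouse arrays. The table the authors deposited holds log2 values, and the submitters' processing notes name RMA; its version, and whether all arrays were normalized in one run, are not given in the sources used here. Arrays have no read depth, so their number limits the precision. Of 45101 probe sets, 34958 had 1 gene symbol, 932 several and 9211 none in the platform annotation, and symbols of 34754 were updated by gene ID. For each of 18194 genes the brightest probe set on average over the 30 arrays was used. Probe sets in the dimmest 40% (below log2 4.544) were dropped, leaving 12674 genes. limma 3.58.1 in R 4.3.3 (lmFit, eBayes) was fitted to the 6 arrays compared, to all 12 arrays of the experiment for each knockdown against control, and to the 8 arrays of lincP21KD. The fit was checked on simulated data. Samples were grouped by their labels, and replicate numbers come from the titles. Same-numbered siHnrnpk and control arrays deviated together (correlations 0.216, 0.166 and 0.209), so those arrays may be pairs.

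The genes named are Hnrnpk and Cdkn1a, the 12 highest and 12 lowest called genes whose groups do not overlap (predicted genes passed over), up to 4 called members with the smallest adjusted p of each of 38 lists, and the 6 largest differences among genes called on opposite sides of control; 140 in all, of which those described are printed. Other genes named (sole exceptions, regulators of a list, abundant members) were chosen after their values were seen. Members and lists were chosen with earlier results of these data known, and lists are described by counts and medians without a set test. Lists of fewer than 4 tested genes were not summarised. Promoter windows come from RefSeq (GRCm38.p6). Alternatives were quantile normalization, arrays centred on their medians, 2 other filters, the mean of a gene's probe sets, trend and robust variances, array weights, a replicate block, all 12 arrays in the direct fit, and leaving out each array. Figures were drawn with matplotlib 3.10.9.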

Additional observations from a re-analysis of the deposited data

How the results depend on the processing

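The counts of called genes in the direct comparison ranged from 3501 to 6052 over 9 other settings and from 3858 to 4899 when an array was left out. With all 12 arrays in 1 fit, 1545 genes were called lower, against 2328. With the mean of a gene's probe sets, 292 genes were at least 2-fold apart, against 475. That count ranged from 429 to 561 when an array was left out. With array weights, the fits against control called 5663 genes for siLincp21 and 5753 for siHnrnpk, but the weights of that 12-array fit stopped before convergence; in lincP21KD they gave 2430. The cause of these shifts was not tested. Leaving out 1 array of lincP21KD gave 286 to 1377 genes: 286 without scrambled replicate 1, 511 without scrambled replicate 2 and 798 without siLincp21 replicate 1. There a scrambled arm of 1 array is assumed to vary like the other groups. Centring arrays on their medians moved the share of calls that were higher from 59.2% to 48.1% for siLincp21 against control and from 63.0% to 45.7% in lincP21KD; in the direct comparison it was 53.6% and became 46.8%. With the replicate number as a block the direct comparison called 4897 genes. Same-numbered arrays of the 2 knockdowns correlated at 0.011, 0.204 and 0.044, and differently numbered ones at -0.114 to 0.059. With so few arrays these values cannot decide whether same-numbered arrays of the knockdowns are pairs, and the labels do not say. The block gave 4161 genes for siLincp21 against control, 3824 for siHnrnpk against control and 1476 in lincP21KD, none of them over 1.5 times from the main count. No named gene changed sign in any alternative. Of the 139 named genes other than Hnrnpk, 20 lost their call in at least 1 of 15 alternatives, most often Pabpc4 (10), Csf1r (8), Cdkn1a and Cebpa (7 each). Probe sets of one gene that disagree limit single genes, and signals near the lower limit leave little room for a fall.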

Other observations

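Mitochondrial respiration genes held opposite calls of similar size. Ndufb3, a complex I subunit, had 11.26, 11.07 and 11.15 with siLincp21, 9.77, 9.86 and 10.03 with siHnrnpk and 11.42, 11.32 and 11.28 in controls, a difference of 1.28 ± 0.09 (limma adjusted p 1.90e-05). The complex II subunit Sdha had 10.59, 10.80 and 10.43 with siLincp21, 11.71, 11.71 and 11.78 with siHnrnpk and 11.84, 11.99 and 11.97 in controls, a difference of -1.13 ± 0.10 (adjusted p 4.37e-05), and its other probe sets gave -1.25 to -0.10. Sdhd, another complex II subunit, differed by -1.29 ± 0.18 (adjusted p 0.000513), and by -0.57 on its other probe set. Of the 42 tested genes of that list 2 were called higher and 7 lower (4.76% and 16.7%), beside 21.2% and 18.4% over all tested genes. The lower count was 3 without siHnrnpk replicate 2 and 2 with all 12 arrays in the fit.

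Among lysosome and autophagy genes 8 of 38 were called higher and 7 lower, 21.1% and 18.4% beside 21.2% and 18.4% over all tested genes. The lower count was 2 with all 12 arrays in the fit, the higher count being 5 without siHnrnpk replicate 1 or without siLincp21 replicate 1. Lipa, lysosomal acid lipase, had 9.92, 9.87 and 10.19 with siLincp21, 9.26, 9.29 and 9.28 with siHnrnpk and 8.86, 9.05 and 8.79 in controls, above control in both knockdowns, and differed by 0.72 ± 0.10 (adjusted p 0.000381). Of the 10 neural markers tested, 2 were called higher (Map2 at 0.63 ± 0.17 and Gap43 at 0.65 ± 0.14) and 4 lower (Tubb3, Nefm, Sox2 at -0.61 ± 0.09 and Nes at -0.43 ± 0.09). Map2, which encodes a dendritic microtubule protein, was above control in both knockdowns (1.40 and 0.77), and Sox2, a transcription factor of neural progenitors, was below it with siLincp21 (-0.67). Tubb3 and Nefm, cytoskeletal genes of neurons, lay above control in both knockdowns and higher with siHnrnpk. Tubb3 had 7.53, 7.69 and 7.44 with siLincp21, 8.39, 8.68 and 8.56 with siHnrnpk and 6.57, 7.03 and 6.83 in controls, a difference of -0.99 ± 0.10 (adjusted p 9.34e-05). The summed signal of the 10 neural markers above the limit was 1620 to 1945 with siLincp21, 1924 to 2038 with siHnrnpk and 1438 to 1692 in controls.

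The Y-linked gene Eif2s3y had 10.90, 10.57 and 10.61 with siLincp21, 9.82, 9.60 and 9.87 with siHnrnpk and 10.86, 10.65 and 10.83 in controls, a difference of 0.93 ± 0.11 (adjusted p 0.000207). The Y-linked Uty was also called higher, at 0.33 ± 0.10 (adjusted p 0.0277), a call lost in 6 of 15 alternatives. Its other probe set above the limit gave -0.03. The Y-linked Kdm5d and the X-linked noncoding RNA Xist were not called, at 0.02 and -0.07.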
